A study of Mus musculus with 22 samples.

Results

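Integrins and the focal adhesion proteins that couple them to the actin cytoskeleton were described as 1 set of genes in the ulna of mice with 1 loaded and 1 non-loaded forelimb. The set was fixed by symbol: every gene named Itga or Itgb in the mouse, with Itgb limited to subunits 1 to 8, and 18 named adaptor and kinase genes. This gave 44 genes, of which 18 code for integrin alpha subunits, 8 for beta subunits and 18 for adaptors and kinases. Of the 44, 43 were among the 25471 genes listed in the files, and all 43 were among the 18793 genes that passed the filter on low counts and were tested. Fermt1, the kindlin of epithelia, was the member not listed, so its expression was not analysed here. The rule used names alone and no measured value, but it was set with earlier results of these data known.

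Integrins are receptors of 1 alpha and 1 beta subunit that bind matrix proteins or counter-receptors on other cells. Talin and kindlin bind the tail of the beta subunit and switch the receptor to its active form, and vinculin, the complex of ILK, PINCH and parvin, paxillin, zyxin and the tensins link it to actin. The kinases FAK (Ptk2) and PYK2 (Ptk2b) signal from these contacts. In bone, adhesions of this kind on osteoblasts and osteocytes are studied as sensors of strain, alpha v beta 3 attaches osteoclasts to mineral, and leukocytes and platelets of the marrow carry integrins of their own.

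The study sequenced total RNA from the middle part of the ulna of 11 mice, with 1 library from the right, loaded limb and 1 from the left, non-loaded limb of each, 22 libraries in all. Of the mice, 7 are labelled wildtype (WT) and 4 as conditional knockouts of Tlr4 (CKO), so the groups are 7 WT non-loaded, 7 WT loaded, 4 CKO non-loaded and 4 CKO loaded libraries. By its title the study concerned Toll-like receptor 4 in osteoblasts and the bone formed after loading. The labels give neither the promoter that drives the deletion nor the strain, age, loading regime or time of harvest, and loaded and non-loaded limbs share the animal's genotype. The replicates are separate mice, and the 2 limbs of a mouse are not independent.

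Libraries held between 21999891 and 42833729 counts. Tlr4 lay between 24.9 and 42.2 CPM (counts scaled to the TMM-normalized library size) in all 22 libraries, and its log2 fold change, CKO against WT, was -0.11 ± 0.12 (SE) in non-loaded and -0.20 ± 0.12 in loaded bone, so its level over the whole gene in whole bone does not check the genotype labels. Ltbp2 did separate the genotypes in non-loaded bone, at 26.5 to 73.5 CPM in WT and 226 to 344 CPM in CKO. In the library labelled WT loaded of mouse 686 it was 380 CPM, against 38.8 to 55.7 CPM in the other 6 WT loaded libraries. In the library labelled CKO loaded of mouse 688 it was 38.4 CPM, against 205 to 284 CPM in the other 3. These 2 loaded libraries go against their labels in this gene, so values without both mice are given beside the results with the smallest p. Muscle, marrow, bone, vessel and nerve markers were all present: 20 of 20 skeletal muscle genes summed to between 24600 and 195000 CPM, and all 10 osteoblast, 8 osteocyte and 8 osteoclast genes of the lists were among the genes tested. The erythroid marker Ahsp was not listed in the files, and 4 of 7 epithelium markers were tested. Every listed gene had a total of at least 10 counts, so a listed marker could not be at 0 in every library. In bulk samples fewer cells of a type and less RNA per cell cannot be told apart.

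In non-loaded WT bone, levels were compared as CPM per kilobase of merged exons. The merged length counts every annotated exon of a gene, and was 18599 bases for Itga1 and 3052 for Itgb2. Ranks and sums depend on this divisor. Itgb1, the partner of most matrix-binding alpha subunits, had the highest level of all 43 genes at 77.8 ± 7.13 (SD, n = 7), and talin 1 (Tln1) followed at 71.3 ± 24.1. The leukocyte subunit Itgb2 was at 50.1 ± 30.8, and Itgb3, the beta subunit of osteoclasts and platelets, at 42.7 ± 20.1. The spreads of neighbours in this order overlap, while Itgb1 was above Itgb3 in 6 of the 7 libraries. By library, Tln1 ran from 517 through a median of 584 to 1200 CPM in non-loaded and from 531 through 771 to 909 CPM in loaded WT bone, and was 549, 1410, 669 and 651 CPM in non-loaded and 721, 666, 649 and 495 CPM in loaded bone of CKO mice 688, 691, 693 and 698. Itgb2 ran from 98.3 through 125 to 363 CPM and from 93.6 through 144 to 234 CPM in WT, and was 109, 311, 151 and 124 CPM and 145, 127, 126 and 68.9 CPM in CKO. The groups of both genes overlap, with the non-loaded limbs of mice 699 and 691 highest. Itgae, the alpha subunit of intraepithelial T cells, was lowest at 0.126 ± 0.0361 CPM per kilobase, and Itgb8 (0.652 ± 0.186) and Itga8 (0.996 ± 0.201) were next.

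On this scale the alpha partners of Itgb1 and Itgb2 were of like level in sum. The 12 alpha genes whose proteins pair with Itgb1 summed to 72.1 ± 5.19 CPM per kilobase (SD, n = 7) in non-loaded WT bone, beside 77.8 ± 7.13 for Itgb1 itself; some of the 12, such as Itgav and Itga4, also pair with other beta subunits. The 4 alpha genes that pair with Itgb2 (Itgad, Itgal, Itgam, Itgax) summed to 47.6 ± 30.8, beside 50.1 ± 30.8 for Itgb2. Most of this sum was Itgam (33.3 ± 25.7), which shares 3450 of its 5024 exon bases with the gene model Gm49368, so the sum is uncertain. Both sums stayed near their beta subunit in the other groups: 74.2 and 80.0 for Itgb1 in loaded WT bone, 71.1 and 82.3 in loaded CKO bone, and 37.2 and 38.2 for Itgb2 in loaded CKO bone. For Itgb3 this was less so, at 42.7 ± 20.1 beside 29.9 ± 9.70 for its partners Itga2b and Itgav together, and Itgb5 (29.2 ± 4.88) was above its partner Itgav (9.13 ± 1.33). Across all subunits the 18 alpha genes gave 141 ± 37.6 and the 8 beta genes 224 ± 40.1.

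Within the alpha subunits, the collagen receptors lay close together: Itga10 had 6.82 ± 3.22, Itga11 6.13 ± 2.21, Itga2 5.89 ± 1.16 and Itga1 3.36 ± 0.259 CPM per kilobase, and the spreads of the first 3 overlap. In CPM not divided by length the order differed, with Itga1 highest at 62.4, then Itga2 at 42.0, Itga10 at 35.4 and Itga11 at 31.4. Among the receptors for laminin, Itga6 (9.52 ± 2.80) and the muscle form Itga7 (9.05 ± 2.91) did not differ beyond their spread, and Itga3 was lower at 1.38 ± 0.315. Of the receptors for the RGD motif, the platelet subunit Itga2b was at 20.8 ± 10.9, Itgav at 9.13 ± 1.33 and the fibronectin receptor Itga5 at 6.67 ± 0.489. Itgam, the alpha subunit of neutrophils and macrophages, was the highest alpha gene at 33.3 ± 25.7, although 3450 of its 5024 exon bases are shared on the same strand with the gene model Gm49368.

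Among the adaptors, the ILK, PINCH and parvin genes Ilk (33.9 ± 7.64), Lims1 (33.2 ± 12) and Parvb (22.5 ± 7.69) were of like level, and Parva was at 4.76 ± 1.38 CPM per kilobase. The kindlins Fermt2 of matrix-anchored cells (17.8 ± 5.94) and Fermt3 of blood cells (17.9 ± 9.43) did not differ beyond their spread. Vcl was at 26.3 ± 8.04, Zyx at 25.4 ± 14.2, Pxn at 17.5 ± 4.51 and the scaffold Bcar1 at 3.54 ± 0.774. Ptk2b, the kinase abundant in blood cells and osteoclasts, was at 7.62 ± 2.49, above Ptk2 at 3.34 ± 0.610. The tensins ran from 34.2 ± 8.34 for Tns1 to 17.6 ± 2.16 for Tns3. For Ilk, 2106 of 2744 exon bases lie antisense to exons of Taf10, and for Vcl 2090 of 8191 antisense to Ap3m1; whether the counting used strand is not given in the sources used here, so these levels are uncertain.

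**Figure D1:**
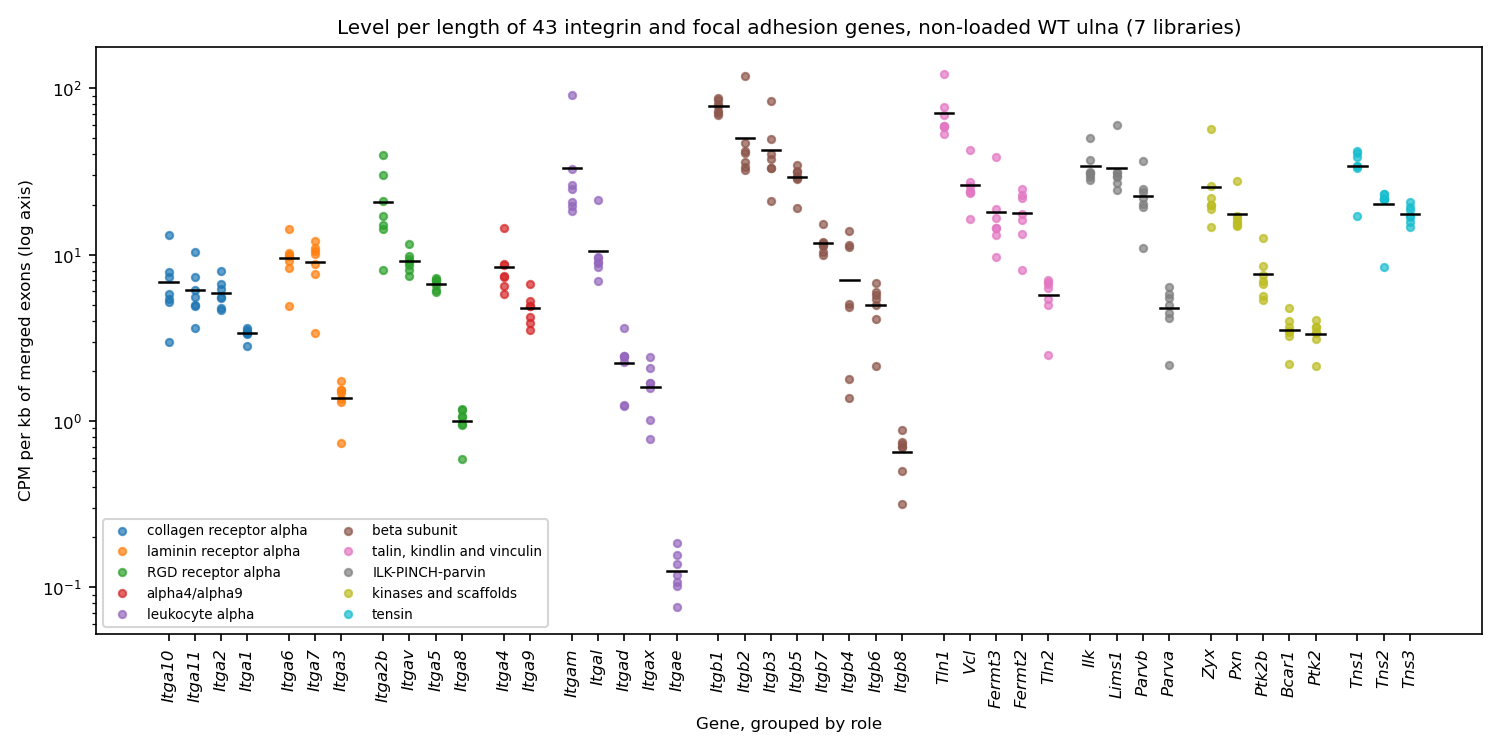
Level of each of the 43 listed genes in the 7 non-loaded WT libraries, as CPM per kilobase of merged exons on a log axis; points are libraries, the line is the mean, and colours group genes by role. Itgb1 (77.8) and Tln1 (71.3) are highest and Itgae (0.126) lowest, and single libraries stand far above the others for Itgam, Itgb2 and Zyx and below them for Itga3.

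The 250 bases before the transcription start are shown for 3 genes whose values under load are given below: Itga5, with the smallest p of the set under load, Itga10, lower in the loaded limb of every WT mouse, and Vcl, a textbook target of serum response factor. Sequences are from RefSeq on GRCm38.p6, 5′ to 3′ on the strand of the gene, with matches to 6 motifs in capitals on either strand. The windows are chr15:103366792-103367041 (minus strand) for Itga5, chr3:96645334-96645583 (plus) for Itga10 and chr14:20929148-20929397 (plus) for Vcl.
Itga5: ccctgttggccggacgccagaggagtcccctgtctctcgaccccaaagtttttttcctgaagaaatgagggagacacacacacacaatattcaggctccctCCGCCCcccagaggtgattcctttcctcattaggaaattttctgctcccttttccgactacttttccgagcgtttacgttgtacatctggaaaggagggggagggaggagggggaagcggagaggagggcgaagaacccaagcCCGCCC
Itga10: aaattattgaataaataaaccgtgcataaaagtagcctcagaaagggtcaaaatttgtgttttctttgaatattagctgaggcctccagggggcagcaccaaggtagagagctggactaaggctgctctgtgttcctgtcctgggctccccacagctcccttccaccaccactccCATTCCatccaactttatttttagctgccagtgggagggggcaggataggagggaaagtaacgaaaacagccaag
Vcl: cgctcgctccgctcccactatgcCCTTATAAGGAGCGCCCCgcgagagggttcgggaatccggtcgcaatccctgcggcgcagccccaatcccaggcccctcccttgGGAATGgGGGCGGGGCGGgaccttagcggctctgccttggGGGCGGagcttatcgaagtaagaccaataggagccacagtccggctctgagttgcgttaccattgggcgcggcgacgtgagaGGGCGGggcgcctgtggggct

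Itga5 holds 2 matches to the SP1 motif (GGGCGG, read here on the other strand), and Itga10 holds 1 to the TEAD motif (GGAATG, also on the other strand). Vcl holds a CArG box, which serum response factor binds, 1 TEAD match, 4 SP1 matches and an NF-kB match; the CArG box and the NF-kB match overlap, as do a pair of the SP1 matches. Of the 44 genes, 31 had a window in the RefSeq table, 37 windows in all. A CArG box was found for 3 of the 31 (Fermt2, Itgb6, Vcl), beside 1.62% of all 27025 genes with a window, and the AP-1 motif (TGANTCA) for 2 (Itgax, Zyx), beside 7.82%. TEAD was found for 3 (Itga10, Itgb1 and Vcl, 14.4% of all genes) and SP1 for 16 (35.4%). PU.1 (GAGGAAGT) was found for 4 (Itga11, Itgav, Itgb6 and Lims1, 2.79%) and NF-kB for 2 (Ilk and Vcl, 8.23%). A match is of letters alone and describes no binding.

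The question of the first comparison was what loading did in WT bone. The fibronectin receptor subunit Itga5 was 1.38-fold higher in the loaded limb and had the smallest p of the 43 genes, Itga10 was lower in the loaded limb of all 7 mice, and most other members were near 0. No member passed the adjusted threshold: 0 of 43 were called, against 0.00532% of all 18793 genes. At an unadjusted p under 0.05 there was 1 of 43 (Itga5), beside 2.34% of all genes. DESeq2 and limma voom also called 0. Values above 0 were found for 22 of 43, beside 47.7% of all genes, with a median log2 fold change of 0.0022 for the set and -0.0080 for all genes. The range was -0.43 to 0.46. For scale, the ligand gene Wnt1 had a log2 fold change of 2.33 ± 0.34 in the same comparison.

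Itga5 codes for the alpha subunit of the classical fibronectin receptor. In non-loaded WT bone it ran from 29.4 through a median of 33.7 to 35.6 CPM, and in loaded WT bone from 27.9 through 46.0 to 57.4 CPM. Of the 7 loaded libraries, 6 lay above every non-loaded one. In CKO mice 688, 691, 693 and 698 the non-loaded values were 26.1, 36.1, 27.7 and 40.1 CPM and the loaded values 42.5, 46.2, 33.7 and 47.8 CPM. The loaded limb was the higher one in 6 of 7 WT mice, the exception being mouse 694 with 29.4 and 27.9 CPM, and in 4 of 4 CKO mice, although the CKO groups overlap through the loaded limb of mouse 693. Per mouse, the log2 difference between limbs was 0.44 ± 0.30 (SD, n = 7) in WT and 0.40 ± 0.21 (SD, n = 4) in CKO. The edgeR log2 fold change in WT was 0.46 ± 0.13 (SE; adjusted p = 1.0, 21st of 18793 genes by p), so it did not pass after adjustment.

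Itga10, a collagen receptor subunit of cartilage and periosteum, ran in non-loaded WT bone from 15.4 through a median of 30.1 to 68.3 CPM and in loaded WT bone from 13.4 through 26.0 to 35.6 CPM. The WT groups overlap widely, yet within each of the 7 WT mice the loaded limb was the lower one, which held for 0.623% of all genes. In CKO mice 688, 691, 693 and 698 it was 26.7, 14.6, 29.0 and 19.0 CPM in non-loaded and 26.7, 17.3, 31.3 and 18.1 CPM in loaded bone, with no common direction. The log2 fold change in WT was -0.43 ± 0.27 (adjusted p = 1.0), and with the mouse as a block -0.37. With muscle and marrow scores as covariates, added to the fit without the block, it was -0.29, and without mice 686 and 688 -0.47. The osteoblast marker score was also lower in the loaded limb of 6 of 7 WT mice, by -0.31 ± 0.30 (SD). Among WT mice, 685 had the largest differences of this score (-0.75), of Itga10 (-0.96) and of the osteocyte (-1.03) and megakaryocyte (2.05) marker scores. Over 11 mice the limb differences of Itga10 and the megakaryocyte score had Pearson r = -0.689 (rho = -0.5, permutation p = 0.0167, adjusted p = 0.0243). Without mice 685 and 691 r was -0.243. The part of these scores in the Itga10 difference was not tested. Of the 5186 exon bases of Itga10, 1739 are shared on the same strand with Gm42957, so its counts are uncertain.

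The other 2 genes singled out in WT were Vcl and Tns3. Vcl, which codes for vinculin, ran from 135 through a median of 198 to 350 CPM in non-loaded and from 196 through 247 to 283 CPM in loaded WT bone. In CKO mice 688, 691, 693 and 698 it was 182, 361, 193 and 230 CPM in non-loaded and 238, 226, 201 and 223 CPM in loaded bone. The groups overlap, the loaded limb was higher in 5 of 7 WT mice and 2 of 4 CKO mice, and the WT log2 fold change was 0.19 ± 0.17 (adjusted p = 1.0). It was 0.21 without mice 686 and 688, and 0.31 without mouse 699, whose non-loaded limb held the highest WT value. Tns3, a tensin, ran from 164 through 192 to 233 CPM in non-loaded and from 170 through 185 to 197 CPM in loaded WT bone, and its log2 fold change was -0.10 ± 0.09 (adjusted p = 1.0), -0.085 without mice 686 and 688.

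By role, values above 0 in WT were found for 0 of 4 collagen receptor, 2 of 3 laminin receptor, 2 of 4 RGD receptor and 4 of 5 leukocyte alpha genes, and for 4 of 8 beta genes. Among the adaptors they were found for 3 of 5 talin, kindlin and vinculin genes, 2 of 4 ILK, PINCH and parvin genes, 4 of 5 kinases and scaffolds and 0 of 3 tensins. The collagen receptors other than Itga10 were within 0.064 of 0: Itga1 was -0.024 ± 0.10, Itga2 -0.060 ± 0.15 and Itga11 -0.064 ± 0.21. Apart from Itga10, the lowest values were those of Itgae, at -0.29 ± 0.26, and Itgb4, at -0.13 ± 0.55. Itgb1, the most abundant member per length, was 0.040 ± 0.10. No member was higher in the loaded limb of all 7 WT mice, beside 0.628% of all genes.

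**Figure D2:**
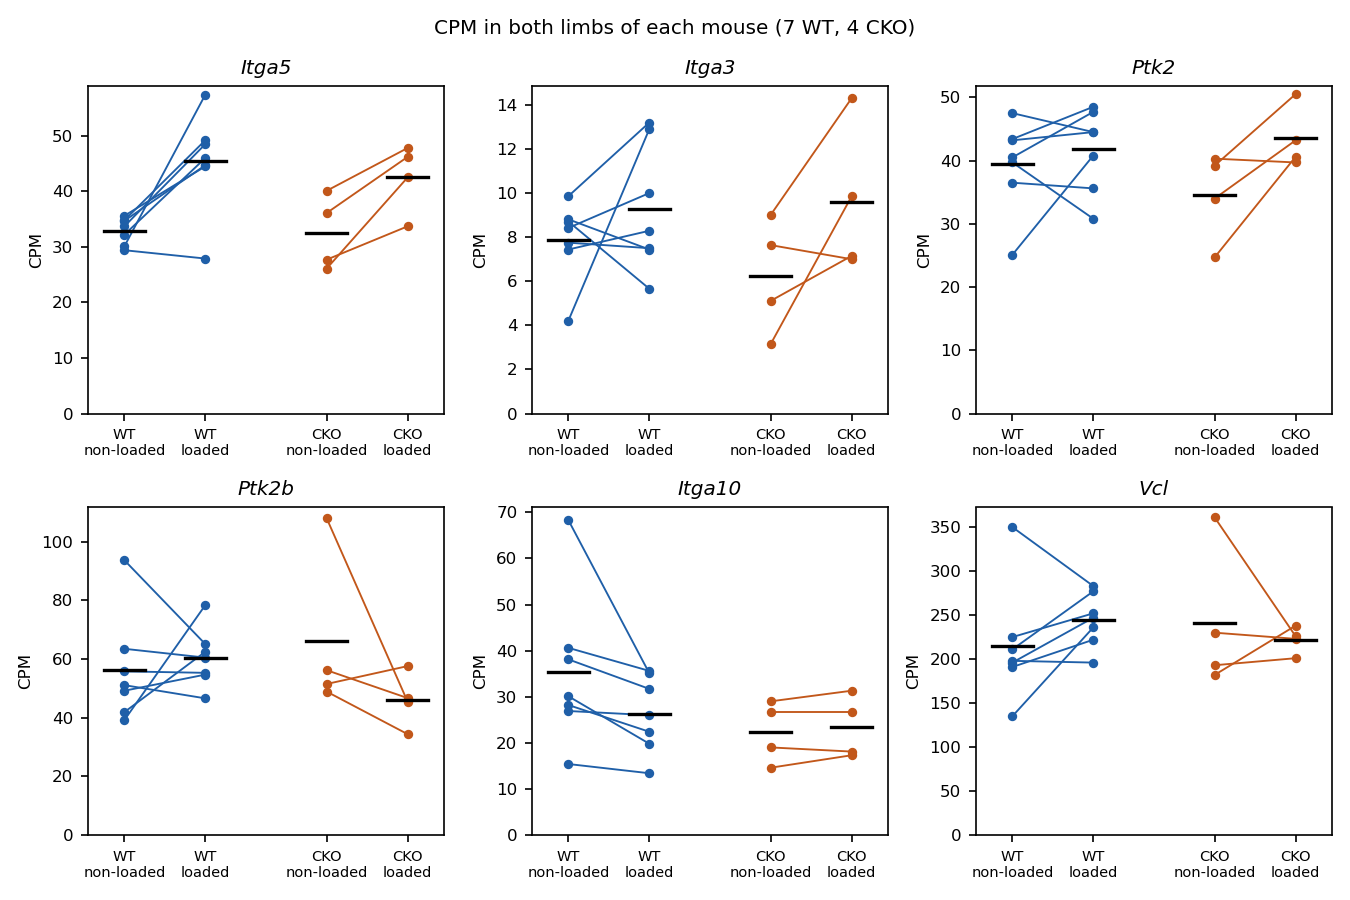
CPM of 6 genes in both limbs of each of 7 WT (blue) and 4 CKO (orange) mice; each line joins the limbs of 1 mouse and the black bar is the group mean, on axes that start at 0. Itga5 is higher with load in 10 of 11 mice, and Itga10 is lower in the loaded limb of all 7 WT mice. On the log2 scale the limbs differ most in mice 691 (-1.25) and 694 (1.0) for Ptk2b, and in mice 685 (0.81) and 691 (-0.67) for Vcl.

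The next comparison asked what loading did in CKO bone. Itga5 was 1.31-fold higher, the laminin receptor subunit Itga3 1.55-fold higher and the kinase Ptk2 1.26-fold higher, while the kinase Ptk2b stood at 0.694 of its non-loaded level. Of 43 genes 0 were called by edgeR, beside 0.0160% of all genes, and 0 by DESeq2 and limma voom. At an unadjusted p under 0.05 there was again 1, Itga5, beside 3.60% of all genes. Values above 0 were found for 19 of 43, beside 48.3% of all genes, with medians of -0.059 for the set and -0.012 for all genes. Itga5 and Itgb1 were higher in the loaded limb of all 4 CKO mice, 2 of 43 members beside 5.07% of all genes, a share near the background, and for Itgb1 the limbs of mouse 688 were nearly equal; no member was lower in all 4, beside 5.90%.

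For Itga5 in CKO the log2 fold change was 0.39 ± 0.17 (adjusted p = 0.739 by edgeR). It rests in part on mouse 688, whose loaded library is 1 of the 2 in doubt: without mice 686 and 688 it was 0.30, and without mouse 688 alone 0.31. The WT value without mice 686 and 688 was 0.48.

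Itgb1 pairs with Itga5 and with 11 other alpha subunits. In CKO mice 688, 691, 693 and 698 it was 319, 266, 307 and 349 CPM in non-loaded and 320, 320, 324 and 380 CPM in loaded bone. In WT it ran from 283 through 319 to 358 CPM without load and from 270 through 319 to 407 CPM with load. All 4 groups overlap, 3 of 7 WT mice were higher in the loaded limb, and the log2 fold changes were 0.040 ± 0.10 in WT and 0.11 ± 0.13 in CKO (adjusted p = 0.763).

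Itga3, which forms a laminin receptor with Itgb1, was 7.64, 3.15, 5.11 and 9.01 CPM in non-loaded and 7.0, 9.85, 7.15 and 14.3 CPM in loaded bone of CKO mice 688, 691, 693 and 698. In WT it ran from 4.21 through 8.42 to 9.86 CPM without load and from 5.66 through 8.29 to 13.2 CPM with load. The groups overlap in both genotypes, with the loaded limb higher in 3 of 4 CKO and 4 of 7 WT mice. The CKO log2 fold change was 0.63 ± 0.32 (adjusted p = 0.739); it was 0.41 without mouse 691, 0.87 without mice 686 and 688 and 0.22 with muscle and marrow scores as covariates.

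Ptk2 codes for focal adhesion kinase. It was 40.3, 24.7, 34.0 and 39.2 CPM in non-loaded and 39.7, 40.6, 43.2 and 50.5 CPM in loaded bone of the same CKO mice. In WT it ran from 25.1 through 40.5 to 47.5 CPM without load and from 30.8 through 44.5 to 48.5 CPM with load. The groups overlap, and the CKO log2 fold change was 0.33 ± 0.18 (adjusted p = 0.739), 0.15 with both covariates and 0.46 without mice 686 and 688. Its relative Ptk2b was 51.5, 108, 56.2 and 48.9 CPM in non-loaded and 57.6, 45.5, 46.7 and 34.4 CPM in loaded CKO bone, and in WT ran from 39.2 through 51.1 to 93.7 and from 46.6 through 60.5 to 78.4 CPM. One library, the non-loaded limb of CKO mouse 691, stands far above the other 3. The CKO log2 fold change of Ptk2b was -0.53 ± 0.26 (adjusted p = 0.739), -0.17 without mouse 691, -0.072 with both covariates and -0.74 without mice 686 and 688.

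By role in CKO, values above 0 were found for 3 of 4 collagen receptor, 2 of 3 laminin receptor and 2 of 4 RGD receptor genes, 0 of 5 leukocyte alpha genes and 5 of 8 beta genes. Among the adaptors they were found for 2 of 5 talin, kindlin and vinculin genes, 1 of 4 ILK, PINCH and parvin genes, 2 of 5 kinases and scaffolds and 2 of 3 tensins. The highest value was that of Itgb4, the hemidesmosome and Schwann cell subunit, at 0.85 ± 0.73, and the lowest that of Itgb3 at -0.62 ± 0.40. Marker lists differed between the same limbs. The osteoclast score (8 of 8 tested) and the T and NK cell score (10 of 10) were lower in the loaded limb of all 4 CKO mice, by -0.66 ± 0.66 and -0.71 ± 0.30 (SD), and in WT they differed by -0.29 ± 0.50 and 0.010 ± 0.62. Summed osteoclast markers ran from 439 to 1290 CPM in non-loaded and from 352 to 738 CPM in loaded CKO bone. The summed muscle markers ran from 24600 to 170000 CPM in non-loaded and from 122000 to 195000 CPM in loaded CKO bone, the neutrophil markers (10 of 10 tested) from 3770 to 11800 and from 3050 to 4980 CPM, and the megakaryocyte markers (10 of 10) from 352 to 1450 and from 304 to 665 CPM. The fits with covariates held only the skeletal muscle score and the mean of the erythroid, neutrophil and B cell scores. Beyond these fits, the part of the marker lists in the CKO values of Itga3, Ptk2, Ptk2b and Itgb3 was not tested. That of the osteoclast, T and NK cell and megakaryocyte lists was not tested at all.

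**Figure D3:**
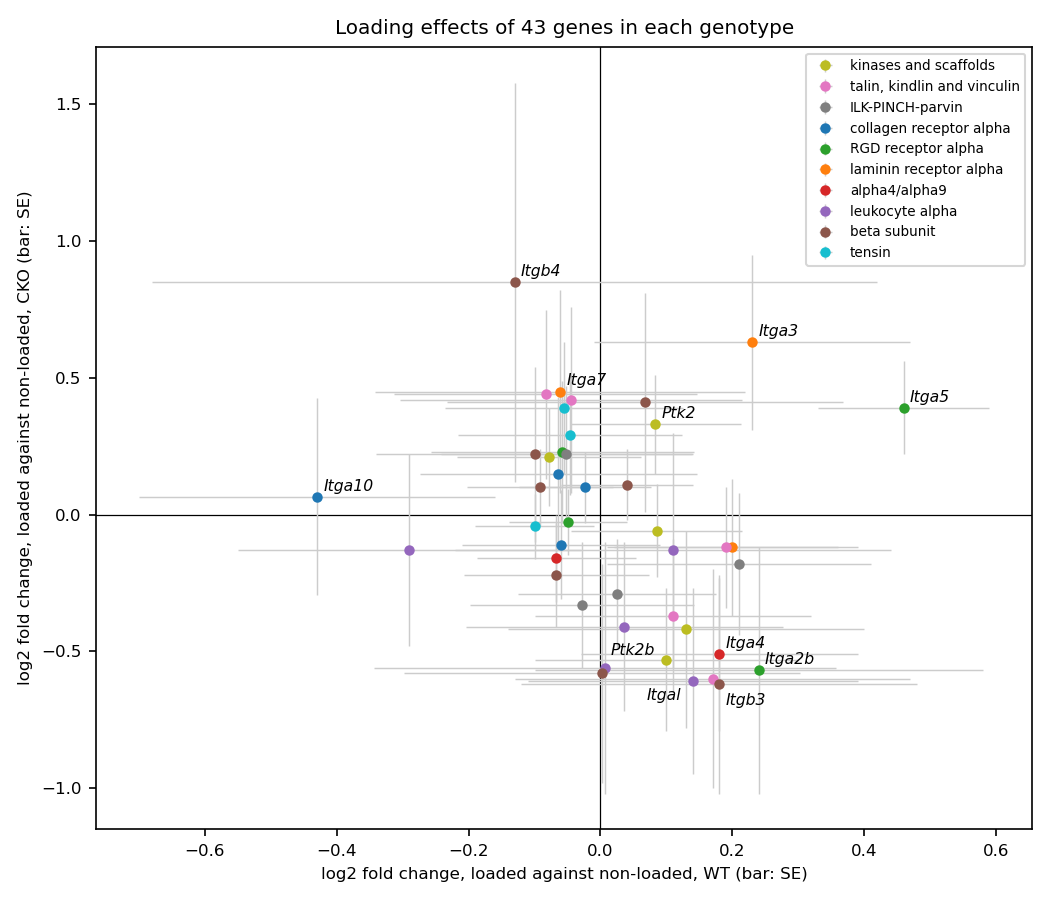
Log2 fold change, loaded against non-loaded, of the 43 genes in WT (horizontal) and CKO (vertical) with SE bars, coloured by role. Itga5 lies at 0.46 and 0.39, more than 2 SE from 0 on both axes, Itga10 at -0.43 and 0.065, and a group with Itgb3, Itgal, Itga4 and Ptk2b lies to the right of 0 in WT and below -0.50 in CKO.

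Averaged over both genotypes, the loading effect of Itga5 again had the smallest p of the set. Of 43 genes 0 were called, beside 0.0905% of all genes (17 genes), and 0 by DESeq2 and limma voom. At an unadjusted p under 0.05 there were 2 of 43, Itga5 and Itga3, beside 3.17% of all genes. Values above 0 were found for 22, beside 45.7%, with medians of 0.0042 for the set and -0.013 for all genes. Itga5 had a log2 fold change of 0.43 ± 0.10, a 1.34-fold difference (adjusted p = 0.307 by edgeR, 33rd of 18793 genes). Over the alternatives its value ranged from 0.38 to 0.46 and its adjusted p from 0.0492 to 0.890. It was called only without mouse 694, the WT mouse without the difference (0.45, adjusted p = 0.0492). Without mice 686 and 688 it was 0.39. Itga3 was at 0.43 ± 0.20 (adjusted p = 0.999), 0.55 without mice 686 and 688, 0.21 without mice 691 and 699 and 0.27 with both covariates. Ptk2 was at 0.21 ± 0.11 and Ptk2b at -0.21 ± 0.16, which turned to 0.012 with both covariates; without mice 686 and 688 they were 0.26 and -0.31. No member was higher in the loaded limb of all 11 mice, beside 0.165% of all genes, and none lower in all 11, beside 0.0266%.

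The interaction asked whether loading acted differently in the 2 genotypes. The 4 genes with the smallest p, Itga4, Ptk2b, Itgal and Itgb3, are all expressed by blood cells or osteoclasts. Their log2 fold changes under load were 0.18 ± 0.21, 0.10 ± 0.20, 0.14 ± 0.25 and 0.18 ± 0.30 in WT and -0.51 ± 0.28, -0.53 ± 0.26, -0.61 ± 0.34 and -0.62 ± 0.40 in CKO, and none passed. The loaded limb was the higher one in 4, 3, 5 and 5 of 7 WT mice and in 1 of 4 CKO mice for each. Of 43 genes 0 were called by edgeR, beside 0.0% of all genes, 0 by DESeq2 and limma voom, and 0 at an unadjusted p under 0.05, beside 2.60%. Values above 0 were found for 21 of 43, beside 50.2%, with medians of -0.048 for the set and 0.0028 for all genes. For Itga5 the interaction was -0.076 ± 0.21 (adjusted p = 0.883); with this SE, a p that misses the threshold does not show that both genotypes respond alike.

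Itga4, the leukocyte receptor subunit for VCAM-1 and fibronectin, ran from 80.7 through 104 to 202 CPM in non-loaded and from 100 through 130 to 182 CPM in loaded WT bone. In CKO mice 688, 691, 693 and 698 it was 111, 250, 137 and 119 CPM without load and 142, 106, 118 and 66.4 CPM with load. The highest values were those of the non-loaded limbs of mice 699 and 691, and the groups overlap. Its interaction was -0.69 ± 0.36 (adjusted p = 0.697), -0.33 without mouse 691 and -0.22 with both covariates. Itgal, the alpha subunit of LFA-1 on leukocytes, ran from 45.7 through 59.5 to 139 CPM and from 46.9 through 68.5 to 105 CPM in WT, and was 61.7, 145, 69.6 and 55.6 CPM and 69.6, 63.6, 52.5 and 32.6 CPM in CKO without and with load. Its interaction was -0.75 ± 0.42 (adjusted p = 0.697), -0.40 without mouse 691 and -0.23 with both covariates.

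Itgb3 pairs with Itgav on osteoclasts and with Itga2b on platelets. It ran from 124 through 221 to 495 CPM in non-loaded and from 158 through 307 to 373 CPM in loaded WT bone, and was 137, 639, 222 and 265 CPM and 258, 239, 197 and 130 CPM in CKO mice 688, 691, 693 and 698. The non-loaded limbs of mice 699 and 691 were again the highest of their groups, and the groups overlap. The interaction of Itgb3 was -0.79 ± 0.50 (adjusted p = 0.697), -0.26 without mouse 691 and -0.046 with both covariates, and that of Ptk2b -0.63 ± 0.32, -0.26 and -0.17. Without mice 686 and 688 the 4 values were larger: -0.98 for Itga4, -0.87 for Ptk2b, -1.02 for Itgal and -1.24 for Itgb3. None of the 4 was called in any of the fits run.

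CKO and WT were then compared within each limb. In non-loaded bone Itga10 was at 0.630 of its WT level, the largest difference of the set, and Tns3 and Itgb5 at 0.861 and 0.859. Of 43 genes 0 were called by edgeR, beside 0.0% of all genes, 0 by DESeq2 and limma voom, and 0 at an unadjusted p under 0.05, beside 3.04%. Values above 0 were found for 18, beside 49.3%, with medians of -0.073 for the set and -0.0030 for all genes. Itga10 had a log2 fold change of -0.67 ± 0.32 (adjusted p = 0.976); all 4 CKO values printed above lie under the WT median of 30.1 CPM, and 1 of them, 14.6 CPM, under the lowest WT value. Tns3 was 156, 180, 167 and 173 CPM in CKO mice 688, 691, 693 and 698 (log2 fold change -0.22 ± 0.11, adjusted p = 0.976), all below the WT median of 192 and, with 1 WT library at 164, not separate from WT.

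Itgb5, a vitronectin receptor subunit that pairs with Itgav, was 95.7, 72.6, 97.7 and 90.1 CPM in non-loaded CKO bone and ran from 67.8 through 106 to 122 CPM in non-loaded WT bone (-0.22 ± 0.13, adjusted p = 0.976). With load it was 85.1, 94.5, 108 and 93.7 CPM in CKO and ran from 83.0 through 99.2 to 108 CPM in WT. Groups overlap in both limbs. Itga4 was 0.39 ± 0.25 higher in non-loaded CKO bone on the log2 scale, and 0.048 without mouse 691.

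In loaded bone Ptk2b, Itgal, Itga9 and Tns3 were the members with the smallest p. Of 43 genes 0 were called by edgeR, beside 0.0% of all genes, 0 by DESeq2 and limma voom, and 0 at an unadjusted p under 0.05, beside 6.81% of all genes. Values above 0 were found for 15 of 43, beside 43.7%, with medians of -0.12 for the set and -0.042 for all genes. Ptk2b was at 0.762 of the WT level (log2 fold change -0.39 ± 0.23, adjusted p = 0.601) and Itgal at 0.716 (-0.48 ± 0.30, adjusted p = 0.606). With both covariates these were -0.12 and -0.19, and without mice 686 and 688 -0.56 and -0.69. Itga9, which binds tenascin C and other matrix ligands, was 30.0, 30.4, 36.3 and 21.6 CPM in loaded bone of CKO mice 688, 691, 693 and 698 and ran from 32.4 through 34.7 to 39.3 CPM in loaded WT bone. Of the 4 CKO values 3 lie below all WT values, and the log2 fold change was -0.24 ± 0.15 (adjusted p = 0.601). In non-loaded bone it was 27.7, 34.0, 36.7 and 33.4 CPM in CKO and ran from 27.0 through 37.5 to 51.2 CPM in WT. Tns3 was 164, 160, 197 and 137 CPM in loaded CKO bone, a log2 fold change of -0.16 ± 0.11 (adjusted p = 0.609). Without mice 686 and 688 Itga9 was at -0.23 and Tns3 at -0.14, and 0 members were called. Loaded and non-loaded libraries of a genotype come from the same mice, so these comparisons are not independent of the interaction.

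Within mice, the limb differences of most of the set went with those of muscle or marrow markers. For each mouse the difference in log2 CPM between its limbs was set against the same difference of 4 marker scores over 11 mice, 172 relations in all, with permutation p-values adjusted by Benjamini-Hochberg over the 172. With the skeletal muscle score 16 genes correlated positively and 18 negatively, and with a marrow score (mean of erythroid, neutrophil and B cell scores) 19 positively and 16 negatively. Among all 18793 genes, correlations at least as strong as the weakest that passed in the set were found for 26.7% and 27.7% with muscle and for 28.4% and 28.3% with marrow, positive and negative. With the megakaryocyte score 16 members were positive and 18 negative (19.2% and 15.0% of all genes), and with the Schwann cell score 14 and 13 (22.9% and 21.6%). In all, 36 members passed with muscle or marrow, beside 61.5% of all genes on that scale, and 33 with both in opposite directions, beside 49.6%. Such relations were thus common among all genes. Without mice 686 and 688, an alternative chosen after seeing the data, 34 and 30 members passed (exact permutation over 9 mice), and all 130 relations that had passed had the same sign. The muscle score itself differed between limbs by -0.010 ± 0.80 (SD, n = 7) in WT and 0.81 ± 1.32 (SD, n = 4) in CKO, with the largest difference, 2.60, in CKO mouse 691. The scores are not independent of each other, since CPM values of a library share 1 total.

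The genes that went with muscle include Tln2, the talin of striated muscle (Pearson r = 0.982, Spearman rho = 0.973, r = 0.950 without the 2 outermost mice, r = 0.966 in the 7 WT mice), the muscle laminin receptor Itga7 (0.951, rho = 0.964, 0.840 and 0.892; with the Schwann cell score r = 0.954, rho = 0.836, 0.877 and 0.929, permutation p = 2e-05, adjusted p = 0.000198), Fermt2 (0.948, rho = 0.909, 0.871 and 0.928) and Itgb6 (0.959, rho = 0.927, 0.908 and 0.944). Their permutation p of 1e-05 with muscle is the smallest that 100000 permutations can give (adjusted p = 0.000156). The talin pair split: Tln1 had r = -0.863 with muscle (rho = -0.818, p = 0.00046, adjusted p = 0.00139). So did the kinases, with Ptk2 at r = 0.820 (rho = 0.745, p = 0.00182, adjusted p = 0.00423, r = 0.604 without the 2 outermost mice) and Ptk2b at r = -0.964 (rho = -0.918, p = 1e-05, adjusted p = 0.000156, -0.906).

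Of the leukocyte subunits, Itga4, Itgad, Itgal, Itgam, Itgax and Itgb2 correlated with marrow, while Itgae (r = 0.0, rho = 0.036, permutation p = 1.0, adjusted p = 1.0) and Itgb7 (r = 0.571, rho = 0.673, p = 0.0668, adjusted p = 0.0833) did not pass. Itgb2 had r = 0.958 with the marrow score (rho = 0.918, permutation p = 2e-05, adjusted p = 0.000198), Itgam 0.946 (rho = 0.900, p = 4e-05, adjusted p = 0.000246) and Itga4 0.940 (rho = 0.945, p = 3e-05, adjusted p = 0.000198), with 0.928, 0.907 and 0.886 without the 2 outermost mice and 0.923, 0.917 and 0.895 in WT alone. The platelet receptor subunits Itga2b and Itgb3 followed the megakaryocyte score almost exactly, at r = 0.996 and 0.985 (both rho = 1.0, permutation p = 1e-05, adjusted p = 0.000156, 0.992 and 0.995 without the 2 outermost mice). Vcl had r = 0.933 with it (rho = 0.964, p = 1e-05, adjusted p = 0.000156, 0.934). Itgb4, at 5.83 to 96.9 CPM the member with the widest spread, had r = 0.900 with the Schwann cell score (rho = 0.718, p = 0.00017, adjusted p = 0.00068, 0.716 without the 2 outermost mice). Itgb4 also passed with muscle (r = 0.829, rho = 0.827, permutation p = 0.00102, adjusted p = 0.0027, 0.58 without the 2 outermost mice). With marrow it had r = -0.745 (rho = -0.664, permutation p = 0.00815, adjusted p = 0.0137).

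Itga5 was 1 of 4 genes, with Itga9, Itgae and Tns3, that passed with none of the 4 scores. Its limb differences had r = 0.002 with muscle (rho = -0.127, permutation p = 0.995, adjusted p = 1.0), 0.035 with marrow (rho = 0.245, p = 0.921, adjusted p = 0.932), 0.207 with megakaryocytes (rho = 0.355, p = 0.547, adjusted p = 0.607) and 0.150 with Schwann cells (rho = 0.136, p = 0.661, adjusted p = 0.702). The value with muscle was -0.538 without the 2 outermost mice and 0.341 in WT alone, so 11 mice do not fix it near 0. With muscle and marrow scores as covariates the loading effect of Itga5 was 0.51 in WT and 0.40 in CKO, as large as without them. Among the other marker lists, smooth muscle and pericyte genes (8 of 8 tested, summed to 364 to 866 CPM in non-loaded and 464 to 856 CPM in loaded WT bone, and 315 to 765 and 642 to 939 CPM in CKO) were higher in the loaded limb of 6 of 7 WT and 3 of 4 CKO mice, by 0.30 ± 0.70 and 0.47 ± 0.65 (SD). The WT exception was mouse 694 (-0.81), also the exception for Itga5 (-0.08). The CKO exception was mouse 688 (-0.1), where Itga5 was higher with load (0.7). The part of these marker genes in the Itga5 difference was not tested.

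**Figure D4:**
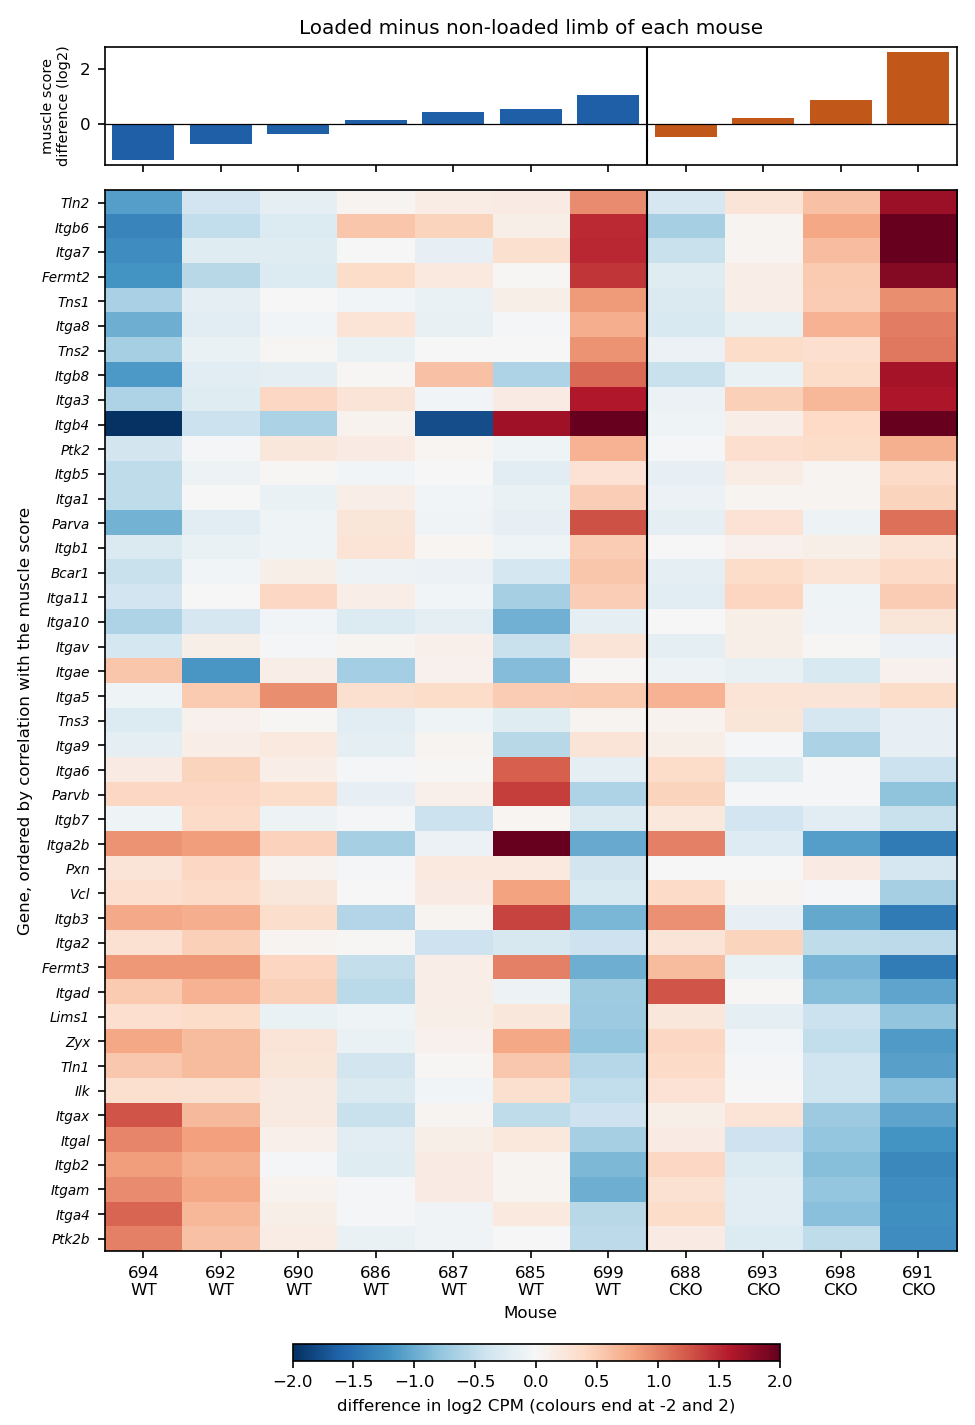
Loaded minus non-loaded limb in log2 CPM for 43 genes (rows, ordered by their correlation with the muscle score) in 7 WT and 4 CKO mice (columns, ordered by the muscle difference in each genotype), with the muscle difference as bars above. The upper rows turn from blue to red with the muscle difference and the lower rows the other way, while the row of Itga5 is red in 10 of 11 mice.

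Of the wider pathway, 43 further adhesion adaptors and regulators and 29 ligands of integrins were tested, and 0 of both lists were called in any of the 6 comparisons, also without mice 686 and 688. In WT under load, 0 adaptors were higher and 2 lower at an unadjusted p under 0.05 (1.22% and 1.12% of all genes), the kinase Pak1 (-0.22 ± 0.09) and Itgb1bp1 (-0.17 ± 0.08), which binds the tail of Itgb1; the smallest p above 0 were those of Tgfb1i1 (0.17 ± 0.09) and Flnc (0.63 ± 0.34). In CKO under load (1.61% and 2.0% of all genes), 2 were higher, the filamin of muscle Flnc (0.99 ± 0.45) and the kinase Rock2 (0.32 ± 0.15), and 2 lower, Fblim1 (-0.56 ± 0.23) and Lpxn (-0.56 ± 0.24). Fblim1, which links filamin to kindlin, was lower in the loaded limb of all 4 CKO mice, beside 5.90% of all genes, and in 3 of 7 WT mice. Over both genotypes (1.75% of all genes higher and 1.42% lower) Flnc was the adaptor with the smallest p, at 0.81 ± 0.28 (adjusted p = 0.999), higher in 6 of 7 WT and 4 of 4 CKO mice, with Rock2 at 0.22 ± 0.10 beside it and Fblim1 (-0.29 ± 0.14) and Tns4 (-0.39 ± 0.23) on the other side of 0. Flnc is expressed in striated muscle, whose markers differed between limbs as given above, and their part in its value was not tested.

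In the interaction (1.14% of all genes above and 1.45% below 0 at an unadjusted p under 0.05) 1 adaptor was below 0, Lpxn (leupaxin, -0.67 ± 0.30), followed by Fblim1 (-0.54 ± 0.29), and Itgb1bp1 (0.27 ± 0.13) and Itgb1bp2 (0.85 ± 0.51) led above 0. Between genotypes, 1 adaptor was lower in non-loaded CKO bone (Dock1, -0.21 ± 0.10), where 2.19% of all genes were lower and 0.857% higher, while Cass4 (0.50 ± 0.34) and Lpxn (0.28 ± 0.21) led on the higher side. In loaded bone, where 4.0% of all genes were higher and 2.81% lower, 1 was higher (Itgb1bp1, 0.20 ± 0.09, with Itgb1bp2 at 0.69 ± 0.35 next) and 1 lower (Fblim1, -0.55 ± 0.21, with Src at -0.40 ± 0.20 next). The adjusted p of these genes was 0.601 or above by edgeR in all 6 comparisons.

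Of the ligands, 0 of 29 had an unadjusted p under 0.05 in WT, in CKO, on average or in the interaction. The shares of all genes were 2.34%, 3.60%, 3.17% and 2.60%. Fibronectin (Fn1), the ligand of the Itga5 receptor, was 0.32 ± 0.21 higher under load in WT and -0.10 ± 0.28 in CKO, with Icam1 at 0.19 ± 0.11 in WT, and Col1a2 (-0.55 ± 0.49) and Jam3 (-0.21 ± 0.19) on the lower side. In CKO the laminin gene Lama4 (0.40 ± 0.22) and Col4a1 (0.35 ± 0.22) were highest and Vcam1 (-0.47 ± 0.35) and Emilin1 (-0.23 ± 0.19) lowest by p. On average Col4a1 (0.25 ± 0.14) and Col4a2 (0.24 ± 0.14) led, with Tnc (-0.23 ± 0.18) and Emilin1 (-0.11 ± 0.12) below 0, and in the interaction Lama4 (0.53 ± 0.27) and Jam3 (0.59 ± 0.31) stood against Icam2 (-0.26 ± 0.19) and Icam1 (-0.24 ± 0.18). The bone ligands Spp1 and Ibsp were at -0.10 ± 0.23 and -0.11 ± 0.18 in WT.

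Between genotypes, 2 ligands were lower in non-loaded CKO bone at an unadjusted p under 0.05, Lama4 (-0.46 ± 0.19) and Jam3 (-0.48 ± 0.23), and 0 higher, where Cdh1 (0.31 ± 0.26) and Vcam1 (0.21 ± 0.31) led. Of all genes 2.19% were lower and 0.857% higher there. In loaded bone 1 was lower, Fn1 (-0.56 ± 0.25), with Icam2 (-0.27 ± 0.13) next, and vitronectin (Vtn, 0.55 ± 0.35) and Npnt (0.28 ± 0.26) led on the higher side. Among all genes 2.81% were lower and 4.0% higher in loaded bone. Of the 29 ligands, 5 were above 0 in non-loaded and 13 in loaded bone, beside 49.3% and 43.7% of all genes, and the adjusted p by edgeR was 0.601 or above in both.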

How the data were processed

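Each library's deposited file lists the authors' expected counts, made with STAR and RSEM on GRCm38, per the submitters' processing notes; their versions, the annotation and the strand setting were not given in the sources used here. Per the labels' protocols, libraries were made with a stranded total RNA kit from 4 ng of RNA. The values are whole numbers and rounding changed none. Positions, exon lengths and overlaps are from GENCODE M21 on the same build.

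Genes were tested in edgeR 4.0.16 (R 4.3.3): filterByExpr kept 18793 of 25471 genes, TMM scaled the libraries, and a quasi-likelihood model with 4 group means over all 22 libraries was fitted (biological coefficient of variation 0.271, with 18 residual degrees of freedom). This model has no term for the mouse, so its SE and p treat the 2 limbs of a mouse as independent, which they are not. A fit with the mouse as a block was run as an alternative. The Benjamini-Hochberg adjustment ran over all genes and calls were made under 0.05; SE is the log2 fold change over the square root of F. Log2 CPM used a prior count of 2. The code was tested on simulated data. Alternatives numbered 23 and included DESeq2 1.42.0 and limma 3.58.1 (voom). Both limbs of a number come from 1 animal, so numbers pair the samples. Deviations from group means correlated from -0.256 to 0.415 between limbs (median 0.189, over 0.1 in 7 of 11 mice). In mice 685, 690, 691, 692, 698 and 699 the loaded limb correlated best with its own non-loaded limb. In mice 686, 687, 688, 693 and 694 it correlated better with that of another mouse of the group. The chi-square per gene between libraries of a group was 27.4 to 548 over 54 pairs, so none was a copy of another.

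Members, gene lists and markers were chosen with earlier results of these data known, and the mean over genotypes was added as a comparison after the data had been seen. Values by library (lowest, median and highest in WT) are given for the 4 members with the smallest p in each of 6 comparisons and the 4 with the highest level per length; of the adaptor and ligand lists, the 2 with the smallest p on each side of 0 are named. The values of 1 adaptor are not reported here.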

Additional observations from a re-analysis of the deposited data

Results flagged for a closer look

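In 11 of 60 groups of libraries, taken over 15 genes, 1 library stood apart from the rest by Dixon's ratio at the 95% level. For normally distributed values chance alone gives about 1 in 20 groups. The 15 genes were measured in the same libraries, so the 60 groups are not independent and the count does not measure an excess over chance. Of the 11, 7 fall on 1 library, the non-loaded limb of WT mouse 699: Itga3 was 4.21 CPM there (next 7.44), Itga4 202 (123), Itgal 139 (63.5), Itgb2 363 (143), Itgb5 67.8 (101), Tln1 1200 (757) and Vcl 350 CPM (225). Another 3 fall on the non-loaded limb of CKO mouse 691: Itgal was 145 CPM (next 69.6), Ptk2b 108 (56.2) and Tln1 1410 CPM (669). The last is Itgb1 in the loaded limb of CKO mouse 698, at 380 CPM (next 324). Mice 699 and 691 also had more muscle in the loaded limb, at 1.07 and 2.60 on the log2 scale. Marrow scores were lower in their loaded limbs, by -1.12 and -1.31, and megakaryocyte scores by -1.12 and -1.4. In their non-loaded limbs the marrow scores (7.34 and 7.3) and megakaryocyte scores (6.24 and 6.46) were the highest of their groups. The most unequal WT mouse in muscle was 694, at -1.27, with a marrow difference of 1.23, and no library of that mouse was flagged. Dixon's ratio was taken within groups. The limb of mouse 694 with less muscle is the loaded one, in another group than the flagged limb of mouse 699. The part of muscle, marrow or megakaryocytes in the flagged values was not tested.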

How the results depend on the processing

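In 5 of the 6 comparisons 0 members were called under every alternative run; in the mean over genotypes the number was 0 to 1 when single mice were left out, the 1 being Itga5 without mouse 694. With the replicate block (the mouse as a term, which pairs the limbs) Itga5 was 0.44 in WT, 0.40 in CKO and 0.42 on average (adjusted p = 0.186), and 0 members were called; the block could not be fitted for CKO against WT. Ptk2b on average (-0.21) turned to 0.0121 with muscle and marrow covariates, 0.0159 with these and the block, and 0.0283 without mice 691 and 699; the cause was not tested. Counts at an unadjusted p under 0.05 moved most when mice were left out, and so did the share of all genes: without mouse 699 there were 11 members in the interaction (14.5% of all genes) and 11 in CKO against WT, non-loaded (15.8%); in CKO under load there were 7 without mouse 688 (13.1%), 7 without 686 and 688 (12.5%) and 0 without 691 (1.22%); in WT under load there were 6 without mice 691 and 699 (11.7%). Scalings other than TMM kept the median of all genes within 0.1 of 0. With 4 CKO mice, 24 of 43 members had an SE over 0.25 under load.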
